A study of Mus musculus with 4 samples.

Results

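The respiratory chain and ATP synthase of the inner mitochondrial membrane are built from subunits of 2 genomes, and the nuclear-encoded ones are described here. Members were the protein-coding nuclear genes whose mouse GENCODE symbol names a subunit of complexes I to V (Ndufa, Ndufb, Ndufc, Ndufs and Ndufv genes, Ndufab1, Sdha to Sdhd, Cyc1, and the Uqcr, Cox4i, Cox5, Cox6, Cox7, Cox8 and Atp5 genes). By this rule 86 of the 50600 genes in the files were members, of 21751 nuclear protein-coding genes. They comprised 36 genes of complex I, 4 of complex II, 9 of complex III, 20 of complex IV and 16 of complex V. Atp5s, whose symbol fits the rule but whose protein is not a subunit of the synthase, was shown apart.

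The study sequenced RNA of primary T cells (strain C57BL/6NJ) and has a single group of 4 libraries, biological replicates 1 to 4 in the labels. The file headers describe the cells as Th0, activated, at 16 h. Th0 denotes T helper cells that were activated with no cytokine steering them to a lineage. Age is given as unknown and sex as not collected. The 4 biosamples share a donor identifier, and nothing says whether they came from separate animals, so p-values measure only the spread between these samples. There was no second condition, and the questions were how high each subunit stood, which tissue isoforms were used, and how closely the libraries matched.

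Electrons from NADH enter the chain at complex I and those from succinate at complex II. They pass through ubiquinone to complex III and through cytochrome c to complex IV, which reduces oxygen. Complexes I, III and IV pump protons, and complex V, the ATP synthase, uses the gradient to make ATP. Several subunits of complex IV exist as alternative isoforms known from heart and skeletal muscle, lung or testis, and T cell activation is known for an increase of mitochondrial mass and respiration.

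Depth was 53619400, 48931322, 63313389 and 46192242 read pairs assigned to genes in replicates 1 to 4. All 6 T cell markers were detected, from Cd3g at a mean of 132 TPM to Cd5 at 1184 TPM. TPM is the count over the deposited exonic length, scaled to a total of 1000000 per library, and detected means no library under 1 TPM. Values below are in TPM in the order of replicates 1 to 4, or as mean ± SD (n = 4), and genome positions are mm10. The summed markers of B cells stood at 5.97, 4.96, 4.47 and 1.19 TPM, and Cd8a at 0.99, 1.06, 0.83 and 0.23 TPM. Of the 2 lung epithelial, 2 brown fat and 3 erythroid markers none had a count. The myeloid, muscle and germ cell lists summed to at most 5.93 TPM in a library, of which Tnnt2 made most (4.50 ± 0.93 TPM), and Mb and Myh6 were at 0.

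Of the 86 members 78 were detected, or 90.7%, against 45.2% of nuclear protein-coding genes. All 8 members that were not detected belonged to complex IV isoforms. At 100 TPM or more in every library stood 61 of the 78, or 78.2%, against 19.1% of detected nuclear protein-coding genes. The median over detected members was 215, 224, 215 and 201 TPM, against 32.4, 32.2, 32.5 and 34.1 TPM for detected nuclear protein-coding genes. Together the members took 2.28%, 2.31%, 2.26% and 2.11% of all TPM. In bulk RNA, a smaller number of cells and less RNA per cell cannot be told apart.

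**Figure D1:**
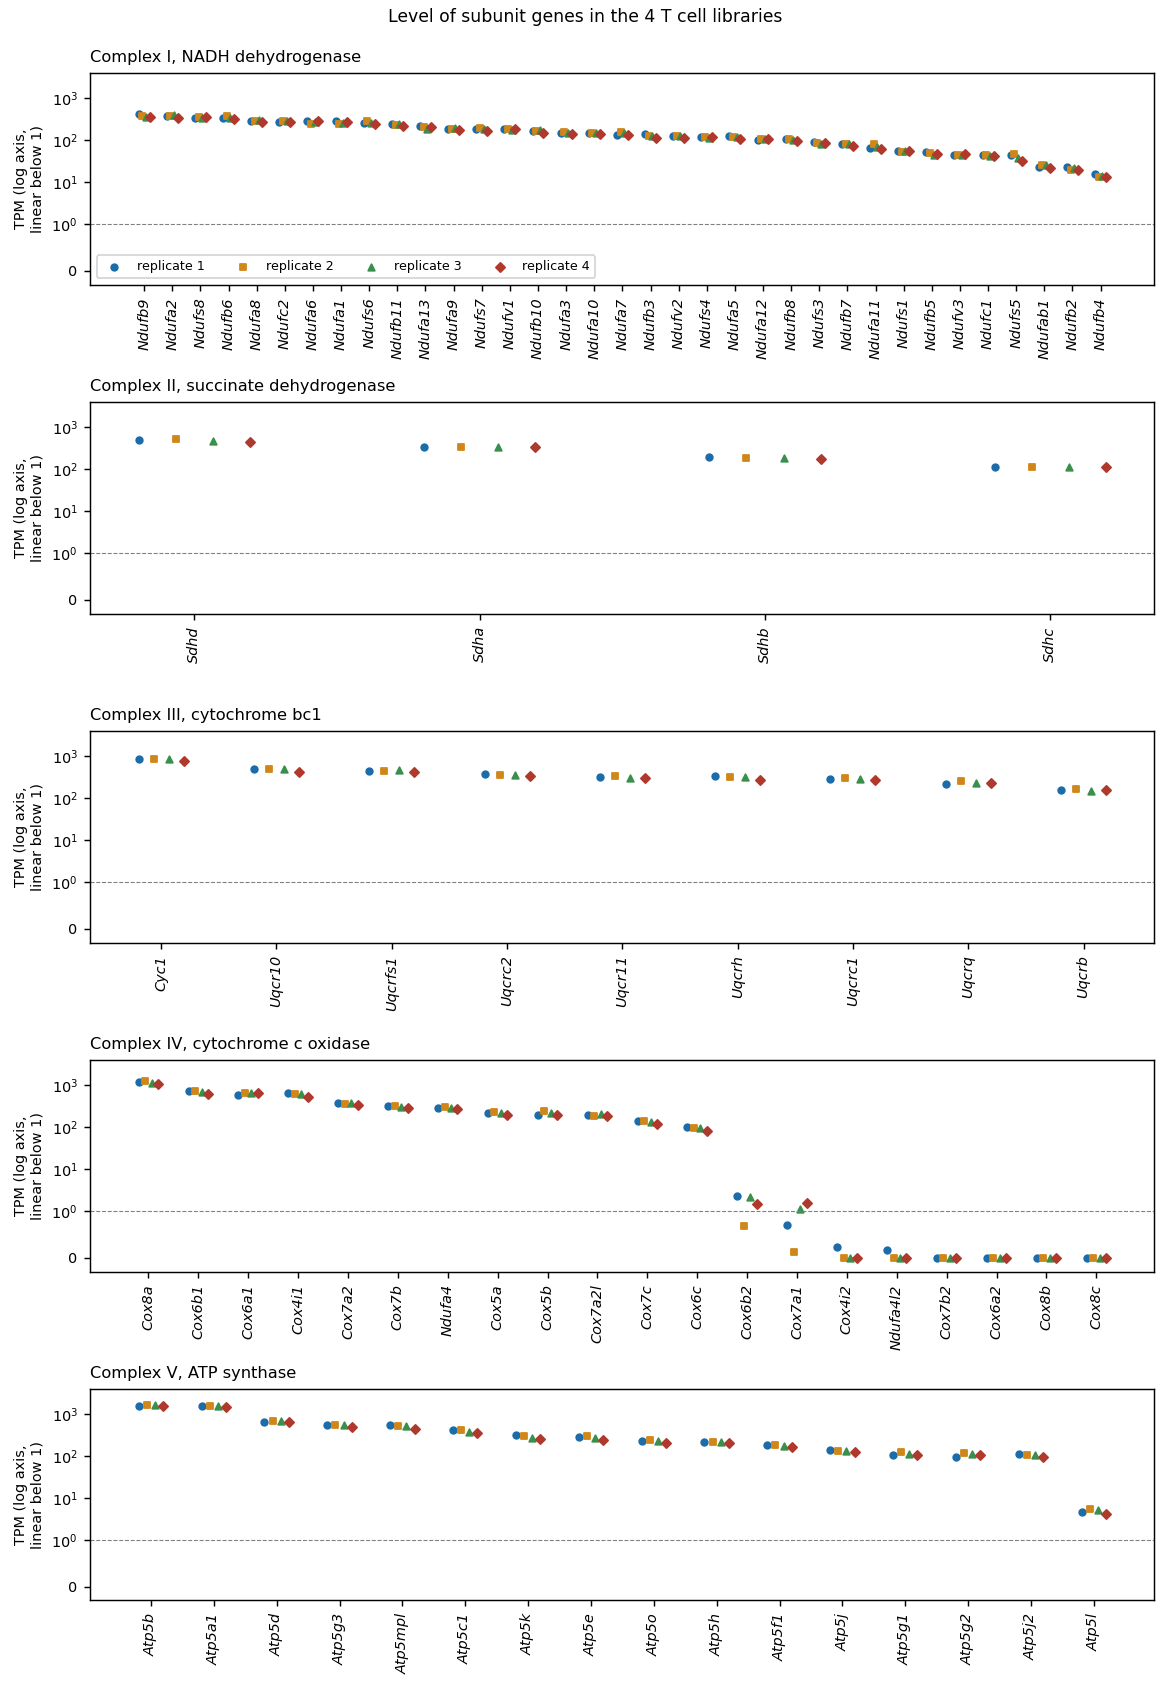
Level of the subunit genes reported here in TPM (vertical axis, logarithmic above 1 and linear below) in the 4 libraries, by complex, with genes ordered by mean and the dashed line at 1 TPM. Atp5b and Atp5a1 lead complex V at means of 1616 and 1563 TPM, and 8 isoform genes of complex IV lie at or near 0.

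Complex I, the NADH dehydrogenase, had the lowest median of the complexes at 147 ± 7.27 TPM, and all 36 of its members were detected. Its members ran from Ndufb9 (417, 391, 357 and 355 TPM) and Ndufa2 (386, 383, 394 and 348 TPM), 2 accessory subunits, down to Ndufb4 (16.1, 13.1, 14.3 and 13.3 TPM). The values of Ndufb9 and Ndufa2 overlapped, so their order was not resolved. These orders are by the deposited length. With the principal transcript, a single annotated mRNA per gene, Ndufb9 stood at a mean of 229 TPM and Ndufa2 at 247 TPM. Ndufb7 stood above both at 370 TPM. A length set anew for all genes also rescales the total of each library. Ndufa2, whose length of 572 bases did not change, came to 0.65 of its value for that reason. A lower TPM therefore does not by itself mean a longer transcript.

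The catalytic or cofactor-binding subunits of complex I differed among themselves. Ndufs8, which holds iron-sulfur clusters, stood at 346, 362, 335 and 356 TPM. Ndufs7 stood at 185, 199, 191 and 172 TPM and Ndufv1, which binds NADH and the flavin, at 184, 185, 179 and 182 TPM. These overlapped, while Ndufv2 (127, 126, 126 and 117 TPM) lay below both in every library. Ndufs3 stood at 92.3, 85.0, 81.2 and 88.5 TPM. Ndufs1, the largest of the cluster-bearing subunits, stood at 55.6, 51.7, 54.9 and 55.2 TPM. Ndufs8 and Ndufs1 both belong to the arm that carries electrons from NADH to the quinone, and their values did not overlap. The order within this group depended on the gene length. With the principal transcript Ndufs7 (277 TPM) lay above Ndufs8 (224 TPM), and Ndufs1 (111 TPM) above Ndufv2 (94.8 TPM), in means. Ndufab1, the mitochondrial acyl carrier protein, measured 23.4, 26.3, 25.5 and 22.2 TPM, and Ndufb2 23.2, 19.5, 22.03 and 19.1 TPM.

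Complex II, the succinate dehydrogenase, is wholly nuclear-encoded, and by the deposited length its 4 genes stood in 1 order in all 4 libraries. Sdhd, a membrane anchor, was highest at 506, 518, 486 and 454 TPM. Sdha, the flavoprotein, followed at 334, 338, 347 and 347 TPM, and the iron-sulfur subunit Sdhb at 200, 190, 186 and 178 TPM. Sdhc, the other anchor, was lowest at 116, 112, 113 and 113 TPM. The 2 anchors, which form a heterodimer, thus stood at 491 ± 28.0 and 113 ± 1.84 TPM. With the principal transcript as length the means were 321 TPM for Sdhd, 299 TPM for Sdha, 241 TPM for Sdhb and 76.0 TPM for Sdhc. Sdhd has 1231 bases by either length, so its lower value came from the rescaled total. In replicate 4 Sdha (305 TPM) then exceeded Sdhd (297 TPM), so the order of those genes was not resolved.

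Complex III had 9 detected genes of 9 and a median of 326 ± 19.99 TPM. By the deposited length Cyc1, the haem-bearing cytochrome c1, was highest at 846, 882, 861 and 779 TPM. Uqcr10 followed at 495, 512, 511 and 432 TPM, and Uqcrfs1, the Rieske iron-sulfur protein, at 451, 460, 464 and 426 TPM. The lowest were Uqcrq (216, 260, 237 and 227 TPM) and Uqcrb (158, 167, 148 and 155 TPM), both small accessory subunits. By the principal transcript Cyc1 stood at a mean of 432 TPM and ranked 4, while Uqcrq ranked 1 at 695 TPM. With the longest coding transcript Uqcrc1 (518 TPM) and Uqcrh (512 TPM) lay above Cyc1 (476 TPM). Uqcrb was lowest under all 3 lengths.

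The tissue isoforms of complex IV separated sharply, since for every pair with an isoform known from another tissue 1 gene was high and the other at or near 0. The 12 detected members had a median of 301 ± 13.2 TPM. By the deposited length Cox8a led at 1210, 1261, 1130 and 1079 TPM, followed by Cox6b1 at 718, 733, 687 and 613 TPM. Cox4i1, the ubiquitous isoform of the largest nuclear-encoded subunit, stood at 645, 635, 634 and 541 TPM. Cox5a stood at 222, 228, 223 and 195 TPM and Cox5b at 196, 245, 214 and 200 TPM, and these overlapped. All of these surround the core made by the mitochondrial genome. The lowest detected genes were Cox7c (141, 139, 134 and 119 TPM) and Cox6c (98.7, 98.5, 93.7 and 81.5 TPM). Other lengths gave another order. With the principal transcript Cox4i1 led at a mean of 834 TPM, above Cox8a (757 TPM). Cox6c then stood at 431 TPM, Cox5a at 462 TPM, Cox5b at 251 TPM and Cox7a2l lowest at 133 TPM.

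Cox4i2, known from lung, had 3, 0, 0 and 0 counts. Pooled over libraries and per exonic length, Cox4i1 was 10248 times as high as Cox4i2, with an exact 95% binomial interval of 3506 to 49694 that covers counting error only. Cox6a2, the isoform of heart and skeletal muscle, had no count, while Cox6a1 stood at 574, 643, 657 and 653 TPM. Against the limit of 3 counts that a 0 allows per library, Cox6a1 was at least 1987-fold higher. Cox8b, a muscle isoform in mouse, and Cox8c, a testis isoform, had no count either. Cox8a was at least 1739-fold higher than Cox8b and at least 2299-fold higher than Cox8c.

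Cox7a1, the heart and muscle isoform, stood at 0.70, 0.13, 1.09 and 1.53 TPM on 6, 1, 11 and 11 counts. Cox7a2, its ubiquitous counterpart, stood at 379, 358, 377 and 345 TPM, a mean 424 times as high. Cox6b2, known from testis, stood at 2.30, 0.67, 2.15 and 1.48 TPM beside the much higher Cox6b1, a ratio of means of 417. Cox7b2, another testis gene, had no count, and Cox7b was at least 691-fold higher at 328, 322, 308 and 285 TPM. Cox7a2l, counted here with complex IV, was detected at 194, 181, 206 and 187 TPM, 0.93 ± 0.06 log2 units below Cox7a2 on the log2(TPM + 1) scale. By the deposited length the isoforms known from muscle or testis thus stayed under 3 TPM in every library. By the principal transcript Cox6b2 stood at 3.57, 1.04, 3.35 and 2.31 TPM and so counted as detected.

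Ndufa4, first taken for a subunit of complex I and now known as one of complex IV, stood at 294, 299, 294 and 280 TPM. Its paralogue Ndufa4l2, known as a hypoxia-induced gene, had 3, 0, 0 and 0 counts. By pooled counts per length Ndufa4 was 6735 times as high, with an exact 95% binomial interval of 2304 to 32662. With both genes counted in complex I, the medians of complexes I and IV stayed within 1 SD.

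Paralogues were compared within libraries on the log2(TPM + 1) scale by an exact two-sided sign-flip permutation test over 12 pairs. In 11 pairs the first gene was higher in 4 of 4 libraries, with an exact permutation p = 0.125 and a Benjamini-Hochberg adjusted p = 0.136. With 4 libraries 0.125 is the smallest p that the test allows. The last pair, Atp5g2 and Atp5g1, differed by -0.03 ± 0.07 log2 units, less than the spread between libraries (exact p = 0.5, adjusted p = 0.5).

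**Figure D2:**
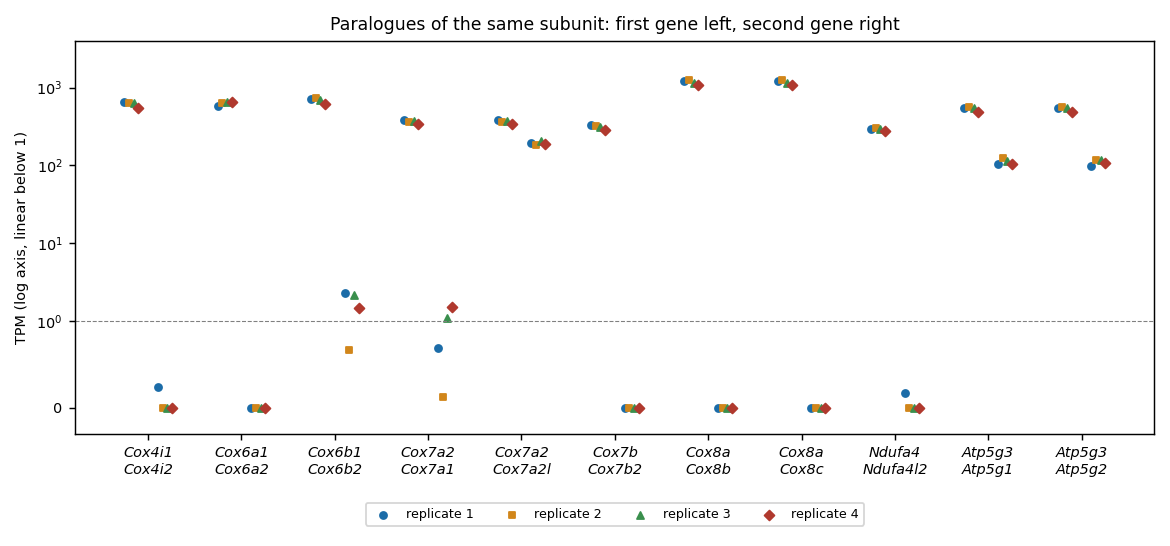
TPM (vertical axis, logarithmic above 1 and linear below) of 11 paralogue pairs in the 4 libraries, the first-named gene left and the second right in each column. The second gene is at or near 0 in 8 columns, while Cox7a2l, Atp5g1 and Atp5g2 lie within a factor of 1.90 to 4.87 of their partner.

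Complex V held the most abundant members. The catalytic beta subunit gene Atp5b stood at 1611, 1629, 1648 and 1577 TPM and ranked 50 among nuclear protein-coding genes. Its partner in the catalytic hexamer, the alpha subunit gene Atp5a1, stood at 1577, 1553, 1601 and 1520 TPM. Atp5b was higher than Atp5a1 in every library. The genes of the central stalk were lower, with Atp5d (delta) at 671, 689, 693 and 659 TPM, Atp5c1 (gamma) at 431, 416, 385 and 350 TPM and Atp5e (epsilon) at 294, 303, 269 and 238 TPM. By the principal transcript Atp5e (752 TPM) lay above Atp5c1 (422 TPM) and Atp5d stood at 917 TPM, in means. Each enzyme holds several alpha and beta subunits for 1 of each stalk subunit. Lowest by the deposited length were Atp5j2 (111, 107, 106 and 98.2 TPM) and Atp5l (4.64, 5.64, 5.32 and 4.23 TPM). Atp5l encodes subunit g, which is needed for dimers of the synthase.

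The c subunit, which forms the rotating ring in the membrane, is made by 3 genes whose mature protein is the same. Atp5g3 stood at 546, 556, 549 and 487 TPM, Atp5g1 at 106, 124, 113 and 105 TPM and Atp5g2 at 98.2, 118, 116 and 107 TPM. Atp5g3 was above both others by 2.24 ± 0.09 and 2.27 ± 0.13 log2 units. The last 150 coding bases of each gene (GENCODE transcripts) are shown because they encode the same C-terminal part of the ring protein while the bases differ, with capitals marking bases unlike those of Atp5g3.
Atp5g3: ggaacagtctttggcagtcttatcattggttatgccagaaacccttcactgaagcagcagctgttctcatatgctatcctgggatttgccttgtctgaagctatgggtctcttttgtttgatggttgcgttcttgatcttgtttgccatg
Atp5g1: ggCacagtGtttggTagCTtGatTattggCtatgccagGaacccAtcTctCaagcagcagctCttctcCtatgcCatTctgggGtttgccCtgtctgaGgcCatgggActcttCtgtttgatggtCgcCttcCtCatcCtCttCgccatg
Atp5g2: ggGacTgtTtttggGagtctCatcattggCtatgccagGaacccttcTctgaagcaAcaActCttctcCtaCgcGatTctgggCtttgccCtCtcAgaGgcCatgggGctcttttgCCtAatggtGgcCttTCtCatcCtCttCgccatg
Atp5g1 differed from Atp5g3 at 29 of these bases and Atp5g2 at 33. The longest stretch shared with Atp5g3 was 11 bases in Atp5g1 and 8 bases in Atp5g2, so reads could tell the 3 genes apart there. Over the longest coding transcript, 10.6% of the 50-base windows of Atp5g1 and 14.8% of those of Atp5g2 recurred in other genes. Pseudogenes such as Gm10039 and Gm10175 were among these. For Atp5g3 the share was 0%.

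The level of many members depended on the gene length used, as the orders above show. The deposited length is the union of all annotated exons, and for 18 members it was over 3 times the principal transcript. For Atp5l it was 6443 bases against 544, for Ndufb2 5628 against 455 and for Atp5g1 4912 against 596. With the principal transcript as length, Atp5l stood at 38.3 ± 4.89 TPM, Ndufb2 at 169 ± 15.7 TPM and Atp5g1 at 603 ± 47.1 TPM. Atp5g1 then lay 0.82 ± 0.09 log2 units below Atp5g3, still in the same direction. Atp5g2 minus Atp5g1 was -1.14 log2 units with that length and 1.06 with the longest coding transcript, so the order of these 2 genes was not resolved.

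Ndufb7 ranked first in complex I by the principal transcript (370 ± 19.99 TPM), against 78.1 ± 4.36 TPM by the deposited length. Atp5l remained the lowest gene of complex V and Ndufb4 the lowest of complex I under all 3 lengths, apart from Atp5s, which is no subunit. Complex I had the lowest median under all 3 lengths, at 147, 165 and 172 TPM for the deposited, longest coding and principal lengths. The other 4 complexes changed places.

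**Figure D3:**
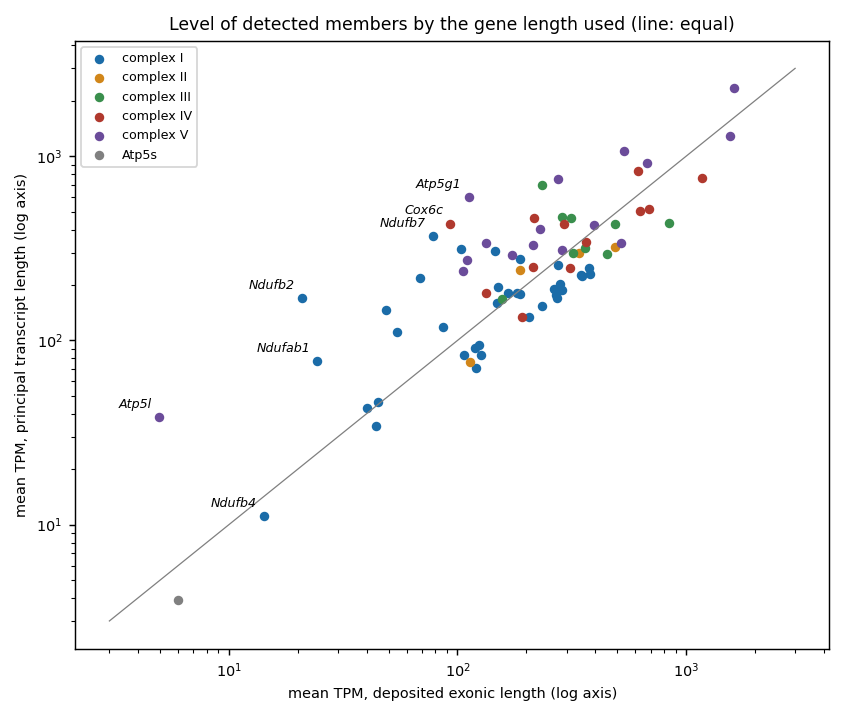
Mean TPM of the 78 detected members with the principal transcript as length (vertical, log axis) against the deposited exonic length (horizontal, log axis), coloured by complex, with the line of equality. Atp5l, Ndufb2, Ndufab1, Ndufb7, Cox6c and Atp5g1 lie well above the line and Ndufb4 lies below it. The total is rescaled, so a gene of unchanged length such as Ndufa2 also lies below the line, at 0.65 of its deposited value. Ndufb4 lies at 0.79, and its principal transcript (971 bases) is shorter than its deposited length (1170 bases).

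Sequence shared with other genes bears on the lowest members, since the headers record no option for reads with several matches. Of the 50-base windows of the longest coding transcript of Atp5l, 68.5% recurred in transcripts of other annotated genes. At 10% or more of windows stood 19 of the 78 detected members, or 24.4%, against 11% of detected nuclear protein-coding genes. After Atp5l came Atp5h (47.9%), Uqcrb (43.2%), Ndufb4 (37.0%), Ndufs3 (35.8%) and Atp5o (35.5%). These shares also count annotated entries that overlap a member in place. Atp5o shared 24.6% of windows with such an entry and 19.1% with the pseudogene Gm5436 elsewhere. The first 150 coding bases of Atp5l and the same part of 4 processed pseudogenes are shown because a read from one could match several of them, with capitals marking bases unlike those of Atp5l.
Atp5l: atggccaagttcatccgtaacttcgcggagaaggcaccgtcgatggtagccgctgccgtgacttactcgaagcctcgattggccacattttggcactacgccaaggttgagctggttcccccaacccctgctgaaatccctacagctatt
Gm10221: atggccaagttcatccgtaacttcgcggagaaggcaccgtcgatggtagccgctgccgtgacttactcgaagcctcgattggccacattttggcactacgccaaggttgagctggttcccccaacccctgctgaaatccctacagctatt
Atp5l2-ps: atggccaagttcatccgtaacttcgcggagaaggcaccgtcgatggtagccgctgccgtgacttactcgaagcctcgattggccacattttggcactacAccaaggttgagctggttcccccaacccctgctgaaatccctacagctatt
Gm4853: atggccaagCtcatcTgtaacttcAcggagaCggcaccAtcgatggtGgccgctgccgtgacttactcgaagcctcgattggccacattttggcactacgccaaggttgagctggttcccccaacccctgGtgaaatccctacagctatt
Atp5l-ps1: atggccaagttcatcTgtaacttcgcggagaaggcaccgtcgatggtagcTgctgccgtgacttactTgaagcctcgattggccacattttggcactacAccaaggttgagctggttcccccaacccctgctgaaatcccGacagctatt
Gm10221 matched Atp5l at all 150 bases, and Atp5l2-ps, Gm4853 and Atp5l-ps1 differed at 1, 7 and 5. Gm10221 received 73, 94, 90 and 61 counts, and Atp5l 482, 537, 646 and 366. The levels of Atp5l and of all 19 members at 10% or more of windows, named here or not, are uncertain because of shared sequence. How the shared windows were counted was not tested.

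Bases before the start site were searched in the RefSeq promoter table (GRCm38.p6, 250 bases before to 50 after each start, both strands), in which 67 of the 86 members had an entry. For NRF1, a known activator of respiratory genes, GCGCATGCG occurred at 8 of 67 members (11.9%) and at 1.95% of all 27025 genes, and the shorter GCATGCGC at 14.9% and 3.05%. For ETS factors such as GABP, CCGGAAGT occurred at 7.46% and 4.31%, and CCGGAAG at 23.9% and 9.93%. For YY1, AAGATGGCG occurred at 10.4% and 1.64%. CCAAT (43.3% and 41.1%) and GGGCGG (40.3% and 38.2%) stood at similar shares. The motifs overlap within a factor, the counts are descriptions with no test, and a match is not a bound site. The 150 bases before the start of 4 members are shown because they hold the NRF1 or the longer ETS letters outside the annotated gene, with the match in capitals.
Cox6a1: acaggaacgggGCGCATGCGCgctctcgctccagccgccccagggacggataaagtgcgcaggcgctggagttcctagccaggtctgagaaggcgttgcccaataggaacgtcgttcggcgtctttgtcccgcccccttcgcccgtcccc
Ndufa11: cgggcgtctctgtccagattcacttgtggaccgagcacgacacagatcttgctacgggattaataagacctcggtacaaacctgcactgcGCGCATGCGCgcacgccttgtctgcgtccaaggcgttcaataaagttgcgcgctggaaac
Uqcr11: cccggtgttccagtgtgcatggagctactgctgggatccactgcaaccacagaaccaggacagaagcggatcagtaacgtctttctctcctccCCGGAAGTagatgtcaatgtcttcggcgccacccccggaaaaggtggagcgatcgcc
Uqcrh: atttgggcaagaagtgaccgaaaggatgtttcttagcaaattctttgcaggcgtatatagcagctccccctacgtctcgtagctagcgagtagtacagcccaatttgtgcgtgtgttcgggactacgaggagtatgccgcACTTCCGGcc
They lie at chr5:115348982-115349131 (minus strand), chr17:56717612-56717761 (plus), chr10:80406831-80406980 (minus) and chr4:116075072-116075221 (minus). Their genes stood at means of 632 TPM for Cox6a1, 68.7 TPM for Ndufa11, 319 TPM for Uqcr11 and 315 TPM for Uqcrh.

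The factors themselves were detected, with Nrf1 at 23.2 ± 0.67 TPM, Gabpa at 60.1 ± 1.60 TPM and Yy1 at 123 ± 6.81 TPM. Of 14 genes that regulate respiratory genes 13 were detected. The highest were Pprc1 (202 ± 17.5 TPM), a coactivator, Yy1, Lrpprc (98.5 ± 5.27 TPM) and the mitochondrial RNA polymerase Polrmt (77.9 ± 5.14 TPM). Ppargc1a, the coactivator known from muscle and brown fat, had no count.

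Assembly factors, which build the complexes and are not part of them, had a lower median than the subunits. Detection held for 52 of 53 such genes. Their median was 43.5 TPM, and 8 reached a mean of 100 TPM. Among them were Uqcc2 of complex III (217 ± 27.3 TPM), Dmac1 of complex I (180 ± 7.27 TPM), and Higd2a (176 ± 4.79 TPM) and Coa3 (160 ± 15.9 TPM) of complex IV. Of 9 electron carriers and other quinone reductases 7 were detected, with Etfa highest at 133 ± 5.67 TPM, then Aifm1 (74.7 ± 1.60 TPM), cytochrome c (Cycs, 68.2 ± 3.71 TPM) and Gpd2 (46.6 ± 3.60 TPM). The testis form Cyct had 1 library above 0 at 0.10 TPM. Of the carriers that exchange nucleotides and phosphate, Slc25a5 was highest at 1946 ± 60.5 TPM, followed by Slc25a3 (422 ± 5.62 TPM) and Slc25a4 (316 ± 7.53 TPM). Ucp2 stood at 221 ± 9.41 TPM, while Ucp1 of brown fat had no count.

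The median SD between libraries was 0.104 log2 units for the tested members, near the 0.102 for all genes tested. The coefficient of variation of detected members had a median of 5.83% and reached 23.9% in Atp5s. In edgeR's quasi-likelihood fit across 12285 genes, each gene's dispersion between the 4 libraries was set against the trend of genes of like abundance. At a Benjamini-Hochberg adjusted p under 0.05 the test called 0 of 79 members, against 0.228% of all genes tested. Unadjusted p was under 0.05 for 15 of the 79, against 5.42% of all genes. The smallest adjusted p in edgeR's test were 0.295 for Atp5e and 0.398 for Uqcrh. DESeq2 marked 0 of the 79 members as dispersion outliers, against 68 of 12285 genes. Without the filter on low counts edgeR's test called 2 of 82 members, Uqcrh (adjusted p = 0.00764) and Atp5e (adjusted p = 0.0148). That setting called 142 of all 20867 genes tested.

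One shift was shared by many members, and it was noticed after the values had been seen. Replicate 4 held the lowest log2 CPM of the 4 libraries for 62 of 79 tested members, against 30.3% of 10763 nuclear protein-coding genes. CPM is the count over the library total scaled by TMM, which centres the bulk of genes, with a prior count of 2. The median member lay 0.16 log2 units below the mean of the other 3 libraries in replicate 4, and above it by 0.06, 0.09 and 0.02 in replicates 1 to 3. The median of all genes was within 0.004 of 0 in each library, which that scaling largely sets. All 5 complexes had a median below 0 in replicate 4, from -0.11 in complex II to -0.20 in complex IV.

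Ndufs5, an accessory subunit of complex I, deviated most in replicate 4, by -0.48, with 45.0, 46.1, 38.4 and 31.7 TPM. Uqcrh, the hinge protein of complex III, followed at -0.35 and 343, 329, 320 and 267 TPM. Atp5l was next at -0.33 and Atp5e at -0.32. Cox4i1 deviated by -0.28. Replicate 4 lay below the mean of the others for 74 of the 79. The other 5 were Ndufa6 (0.04), Cox6a1 (0.02), Ndufa13 (0.02), Ndufv3 (0.0016) and Atp5s (0.24).

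**Figure D4:**
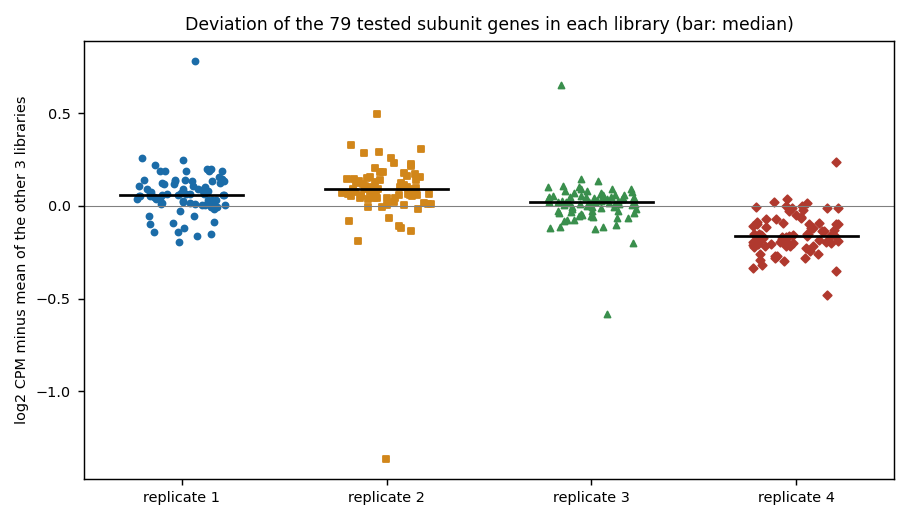
Log2 CPM of each of the 79 tested members minus the mean of the other 3 libraries (vertical axis, log2 units), by library, with bars at the medians. The median is -0.16 in replicate 4 and 0.06, 0.09 and 0.02 in replicates 1 to 3.

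Members are short, with a median principal transcript of 786 bases against 2810 for detected nuclear protein-coding genes. After a trend on transcript length and GC content was removed from each library, the median deviation in replicate 4 was -0.06, and 46 of 79 members were lowest there against 28.4% of all genes. Without replicate 4 the median SD of members was 0.06 log2 units against 0.09 for all genes tested, and with it the values were 0.10 and 0.10. Before the trend was removed, 27 of the 52 tested assembly factors were lowest in replicate 4, against 30.3% of nuclear protein-coding genes.

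Subunits made in the mitochondrion differed in the other direction. All 7 that were detected, of 13, were highest in replicate 4, and 6 were lowest in replicate 2. These ranks are by TPM, and the share of all genes highest in replicate 4 was not counted. The median TPM of detected nuclear protein-coding genes was also highest in replicate 4 and lowest in replicate 2, at 32.4, 32.2, 32.5 and 34.1. Mt-Co1, the catalytic subunit of complex IV, stood at 5163, 4457, 4807 and 6164 TPM, and mt-Cytb of complex III at 2036, 1718, 1873 and 2578 TPM. Mt-Nd1 (2987, 2895, 3292 and 3703 TPM) and mt-Nd2 (1441, 1474, 1640 and 1865 TPM), both of complex I, were also highest there. In edgeR's test the adjusted p was 0.107 for mt-Co1 and 0.0632 for mt-Cytb, so neither passed. DESeq2 marked mt-Cytb, mt-Nd4 and mt-Nd5 as dispersion outliers, among 68 of 12285 genes. It did not mark mt-Co1, mt-Nd1, mt-Nd2 or mt-Nd6. Mt-Co2, mt-Co3, mt-Nd3, mt-Nd4l, mt-Atp6 and mt-Atp8 are listed at or near 0 although respiring cells use them, so their levels were not read. The B cell markers and Cd8a given above were also lowest in replicate 4, which had the fewest read pairs. The part of mitochondrial reads, other cells and depth in the shift of the members was not tested.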

How the data were processed

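Members, lists and tests were chosen with earlier results of these data known. The deposited values are raw counts, which the authors made per the file headers with featureCounts 1.4.6-p4 on GENCODE M13 exons (strand setting 2, both mates required) from STAR alignments (version not given in the sources used here) to mm10. Per the labels, the assay is total RNA-seq, but they link a polyA+ protocol, which bears on transcripts without a tail. Symbols and types came from GENCODE M21, matching 50376 of 50600 identifiers. The planned pair of Cox6c and Cox6c2 was not used, since Cox6c2 is a processed pseudogene there.

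TPM was computed from counts and deposited exonic length. A count of 0 allows up to 3 counts, and limits and intervals cover counting error only. The spread test ran on R 4.3.3 with edgeR 4.0.16 (scaling by TMM, filterByExpr, intercept only, robust quasi-likelihood, upper tail of F with 3 residual degrees of freedom, Benjamini-Hochberg). The first version used each gene's own robust prior degrees of freedom. It called 0 of 12285 genes and failed the check on counts with known answers. After that was seen it was replaced by the common value of 13.9, which passed the check. That check covered only mean counts of 100 or more and added spreads with an SD of 0.5 or 1 log2 units. It called 85 and 99 of 100 such genes. The median SD of tested members was 0.10 log2 units, and whether spread of that size would be called was not checked. DESeq2 1.42.0 gave alternative size factors and outliers.

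Paralogues were compared by exact sign-flip permutation with a pseudocount of 1 TPM. Recurring windows of 50 bases were searched among M21 transcripts, in place of a genome search. The trend removal was a polynomial of degree 3 in log length and in GC content over 10763 genes. In all 7 promoter motifs were searched and all are given. Genes were named by rule: a list of catalytic, cofactor-binding and central subunits, every paralogue, the 2 highest and 2 lowest detected members of each complex, every member under 1 TPM in a library and the 4 highest of each other list. One item under this rule is not reported here. Others were chosen after their values were seen. Alternatives covered gene length, TPM scale, filters, floors, pseudocount, the spread test and each replicate left out. Python 3.11.15, pandas 2.3.3, numpy 2.4.6, scipy 1.17.1 and matplotlib 3.10.9 were used.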

Additional observations from a re-analysis of the deposited data

Results flagged for a closer look

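In 12 of 99 groups of 4 library values, 1 library stood apart from the other 3 beyond Dixon's 95% critical value for 4 samples. Chance flags about 1 in 20 such groups if values vary continuously, and these groups share libraries. That rate does not apply to Cox4i2 and Ndufa4l2, which had counts in 1 library only. The share of all genes flagged in the same way was not counted, so the number of flags is not a result about the members. Replicate 4 was the low library in 6 of them: Atp5g3 (487 TPM), Cox4i1 (541 TPM), Cox5a (195 TPM), Ndufa3 (139 TPM), Ndufb7 (71.6 TPM) and Ndufv2 (117 TPM). Replicate 3 was low for Ndufa13 (184 TPM) and Ndufs4 (113 TPM). Replicate 1 was low for Cox6a1 (574 TPM) and, with it, for the log2 difference of Cox6a1 over Cox6a2 (9.17). Replicate 1 was also the only library with counts for Cox4i2 (0.24 TPM) and Ndufa4l2 (0.17 TPM), on 3 counts each.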

How the results depend on the processing

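The number of detected members stayed between 76 and 79 under every alternative run. Medians moved with the gene length. With the longest coding transcript they were 237 TPM for all detected members and 165, 296, 353, 425 and 336 TPM for complexes I to V. With the principal transcript they were 245 TPM and 172, 269, 426, 422 and 374 TPM. Scaled over nuclear protein-coding genes they were 227 TPM for all detected members and 156, 282, 346 and 320 TPM for complexes I to IV, since only the denominator differs. With no filter on low values the medians were 188 TPM for all members and 162 TPM for complex IV, because undetected isoforms enter. Without members with recurring sequence complexes I, III, IV and V stood at 159, 363, 365 and 454 TPM.

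Of 96 recomputed paralogue differences 95 kept their direction, and Atp5g2 minus Atp5g1 reversed to 1.06 with the longest coding transcript. The spread test called 2 of 82 members without the count filter, against 142 of 20867 genes. It called 0 members with each replicate left out, with DESeq2 size factors and without the robust prior. The same held with each gene's own prior degrees of freedom, a version that failed its check on known answers. No paired analysis was possible because there is a single group. Low counts limit what can be said of Cox7a1, Cox6b2, Cox4i2 and Ndufa4l2.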
